A study of Mus musculus with 4 samples.

Results

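Cebpb and Cebpa encode C/EBPbeta and C/EBPalpha, a pair of basic leucine zipper transcription factors, and the Gata6 ChIP-seq peaks around their genes are described here. All come from 1 list of Gata6 peaks on the mouse build mm9. The members were chosen by position alone: they are the listed peaks whose midpoint lay between 167.3 and 167.9 Mb of chromosome 2, where Cebpb stands at about 167.51 Mb, or between 35.6 and 36.2 Mb of chromosome 7, where Cebpa stands at about 35.90 Mb. They number 21 in all, 14 at Cebpb and 7 at Cebpa, or 0.173% of the list, and the other 12116 listed peaks lie elsewhere. The windows were chosen with the peak positions in view, so the counts and positions below are descriptions and carry no test.

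C/EBP proteins bind DNA as dimers through a basic region and a leucine zipper. In the epidermis C/EBPalpha and C/EBPbeta are known for restraining the division of basal keratinocytes and for promoting their differentiation, and C/EBP factors also act in sebocytes and adipocytes. The Cebpb transcript has no introns and is translated from alternative start codons into activating forms and a shorter inhibitory form. Gata6 is a zinc-finger factor that recognises GATA in DNA and is known in skin from the duct of the sebaceous gland.

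The cells were primary keratinocytes from the dorsal skin of mice of mixed C57BL6/CBA background with the K14deltaNLef1 genotype, in which the keratin 14 promoter drives an N-terminally truncated Lef1. All carried a lentivirus that overexpresses Gata6, the Flag and input controls included, so the list describes binding at raised Gata6 levels. One Gata6 library was made with an antibody from R&D Systems and the other with an antibody from Cell Signaling. A Flag immunoprecipitate (1 library) and input DNA (1 library) were the controls. The genotype label of the R&D Systems library ends in a further N and was read as the same genotype.

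The list gives positions, widths and names, and no values per library. Depth is therefore unknown, antibodies could not be compared, and no replicate error can be attached to a peak. Gene positions are those of the rule, rounded to 10 kb, so distances from a gene carry that error and a peak within 10 kb could not be placed before, in or after the gene.

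In RefSeq's gene table for GRCm38.p6, a later build used here for gene order only, the nearest protein-coding genes below Cebpb in coordinate are Tmem189, Ube2v1 and Snai1, the last a zinc-finger repressor known for silencing E-cadherin. Above it follow Ptpn1, which encodes a protein tyrosine phosphatase, then Ripor3 and Pard6b, a cell polarity gene. Below Cebpa stand Gm45095, its family member Cebpg and Pepd, which encodes a dipeptidase. Above it follow Slc7a10, an amino acid transporter, then Lrp3 and Wdr88. No peak was assigned to any of these genes, since their positions on mm9 were not used here.

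The promoters of both genes are printed because they are the sequences of the members at hand. They show the 250 bases before the annotated start of transcription, 5′ to 3′ on the plus strand of GRCm38.p6 as RefSeq gives them, with each CG in capitals. Their coordinates, chr2:167688665-167688914 for Cebpb and chr7:35119043-35119292 for Cebpa, belong to GRCm38.p6 and must not be set beside the mm9 positions of the peaks.
Cebpb: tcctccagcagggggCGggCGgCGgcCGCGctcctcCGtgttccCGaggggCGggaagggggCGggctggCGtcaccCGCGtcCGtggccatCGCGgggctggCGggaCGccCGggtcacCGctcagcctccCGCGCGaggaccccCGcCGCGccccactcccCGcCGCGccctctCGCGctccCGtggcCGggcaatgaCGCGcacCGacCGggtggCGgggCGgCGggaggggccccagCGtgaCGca
Cebpa: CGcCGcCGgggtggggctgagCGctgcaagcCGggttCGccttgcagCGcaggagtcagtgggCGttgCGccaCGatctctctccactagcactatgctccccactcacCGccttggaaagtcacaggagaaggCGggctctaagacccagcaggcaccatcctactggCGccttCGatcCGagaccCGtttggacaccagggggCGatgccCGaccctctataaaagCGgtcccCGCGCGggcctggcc

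Both promoters are rich in G and C. The Cebpb stretch has 81.6% G and C and 41 CG dinucleotides, and the Cebpa stretch 66.4% and 22, against a median of 52.4% over the 32851 promoters of the table. Neither holds AGATAA or TGATAA on either strand, letters found in 16.6% of all promoters over the same 250 bases. The shorter GATA, which lies inside both of these motifs, is absent from both as well and occurs in 53.6% of all promoters. Of the 7 C/EBP family genes looked up, 4 had an entry. In the other two, Cebpg had no GATA and Ddit3, the stress-induced family member CHOP, had 1. These counts describe letters in a short window of reference sequence and say nothing of binding elsewhere at the loci.

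Gata6 peaks were dense at Cebpb, with 3 within 50 kb of the gene position and none within 25 kb. The window held 23.3 peaks per Mb, 5.09 times the 4.59 per Mb of chromosome 2. Of the 296 complete windows of 600 kb tiled along chromosome 2, 7 (2.36%) held 14 peaks or more, and over all chromosomes 2.01% of 4224 windows did. The tile from 167.4 to 168 Mb is 1 of these 7: it holds all 14 Cebpb peaks and 3 more. The median window of chromosome 2 held 2 peaks, and 101 held none. In windows centred on the gene the ratio went up and down with the width. It was 0 within 25 kb, 6.54 within 50 kb (3 peaks) and 3.27 within 100 kb (3 peaks). Further out it was 5.45 within 200 kb (10 peaks), 4.36 within 300 kb (12 peaks) and 3.05 within 1 Mb (28 peaks).

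At Cebpa the window held 7 peaks, or 11.7 per Mb, 2.24 times the 5.21 per Mb of chromosome 7. A count of 7 or more was reached in 18.2% of the 247 windows of that chromosome and in 15.1% of all windows, so many windows matched this count. The tiles split the Cebpa peaks into 4 and 3, so the locus is not among the windows counted. Of the 7 peaks, 4 lay within 50 kb of the gene and none between 50 and 200 kb of it. The ratio to the chromosome was 7.68 within 50 kb, against 6.54 for the 3 peaks within 50 kb of Cebpb. For Cebpa it was 3.84 within 100 kb and 0.672 within 1 Mb, since the number of peaks within 1 Mb was still 7.

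**Figure D1:**
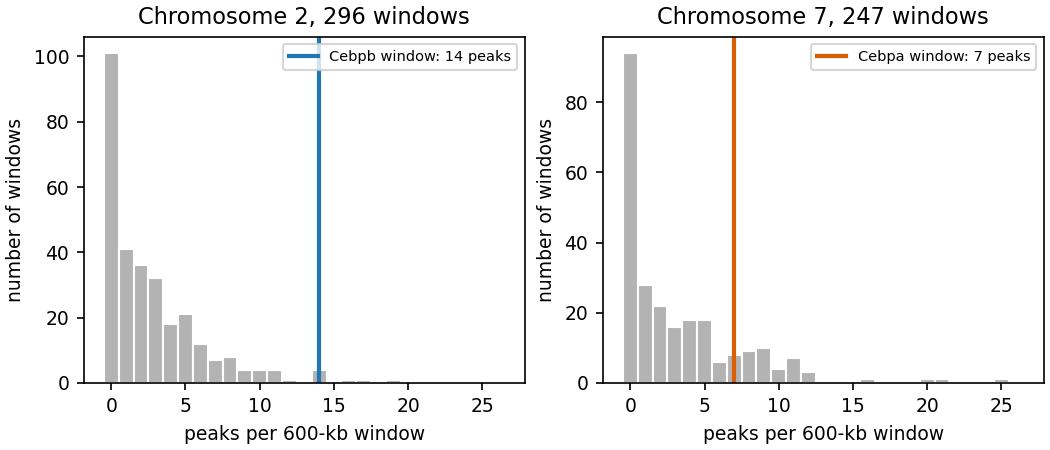
Number of listed peaks in each complete 600-kb window of chromosome 2 (left, 296 windows) and chromosome 7 (right, 247 windows), with the count of the locus window as a coloured line. The Cebpb line at 14 lies in the sparse upper tail, and the Cebpa line at 7 lies among well-filled bars.

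The loci differed in how close the nearest peak came to the gene. No peak lay within 25 kb of the Cebpb position, on a chromosome where the median gap between neighbouring peaks was 54.5 kb. The nearest was 31.5 kb below it (167478384-167478521), and over all gene positions within the 10-kb rounding the nearest distance ran from 21.5 to 39.1 kb. The nearest peak to Cebpa was 8.81 kb above its position (35908733-35908881, 149 bp wide), a distance under the rounding error. Over gene positions within the rounding the nearest peak was at most 15.5 kb away, and the peak could also coincide with the gene.

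Each peak has a name that joins the chromosome to a whole number, called the name number here. No source used here says what it counts. Along chromosome 2 the median width was 151 bp in the 25% of peaks with the lowest numbers and 126 bp in the 25% with the highest, and along chromosome 7 it was 152 and 131.5 bp. Name numbers are also given below as percentiles among the listed peaks of the chromosome, where a low percentile means a low number.

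More peaks lay above Cebpb than below it. Of the 14 peaks, 2 lay below the gene position, in 210 kb of window, and 12 above it, in 390 kb, which is 9.52 against 30.8 peaks per Mb, a ratio of 3.23. The lower edge of the window falls in an empty stretch of 210 kb. Equal arms, chosen after the data were seen, held 3 peaks below and 9 above within 300 kb. The imbalance was smaller in longer arms: 7 below and 14 above within 400 kb, and 10 and 18 within 1 Mb. Cebpb is on the plus strand in GRCm38.p6, so, if mm9 has the same orientation, higher coordinates are on the side of its 3′ end. The 2 peaks below were number 1028 (167461470-167461611, 48.5 kb away) and number 1374, the nearest peak. Both carried high numbers, at percentiles 78.0 and 88.0. The first peak above the gene, number 588 (167556651-167556788), was 46.7 kb away at percentile 55.4. It was followed by an empty stretch of 86.2 kb between midpoints and then by number 373 (167642792-167642956), 133 kb from the gene and at 165 bp the widest of the 14.

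Of the 12 peaks above Cebpb, 5 gathered in a group 147 to 156 kb from the gene. Each lay within 5 kb of the next, and they were the window's only peaks with a neighbour that close, 35.7% of its peaks against 24.4% on chromosome 2 and 23.2% in the whole list. It was part of what chose the window, so the share describes it and is no support. From low to high coordinate its members were number 1953 (167656753-167656796), number 297 (167659202-167659344), number 239 (167660281-167660444), number 524 (167664799-167664959) and number 122 (167665955-167666115). The midpoints were 2.50, 1.09, 4.52 and 1.16 kb apart, so numbers 297 and 239 formed a close pair, as did numbers 524 and 122, with a wider gap between the pairs.

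The first member of the group stood apart from the others. Number 1953 was 44 bp wide, the narrowest of all 21 peaks and the only one at or under 83 bp, a width limit met by 10.1% of peaks on chromosome 2. Its number stood at percentile 96.5. The other four were 143 to 164 bp wide and stood at percentiles 13.1 to 50.4, number 122 lowest. The span of the group was 9.36 kb, against a median of 7.63 kb over the 25 groups of 4 or more peaks in the list. Its median percentile was 31.4, and 7 of those groups had a lower median and 17 a higher one. The other two groups of 5, on chromosomes 7 and 11, had medians of 50.6 and 44.6.

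**Figure D2:**
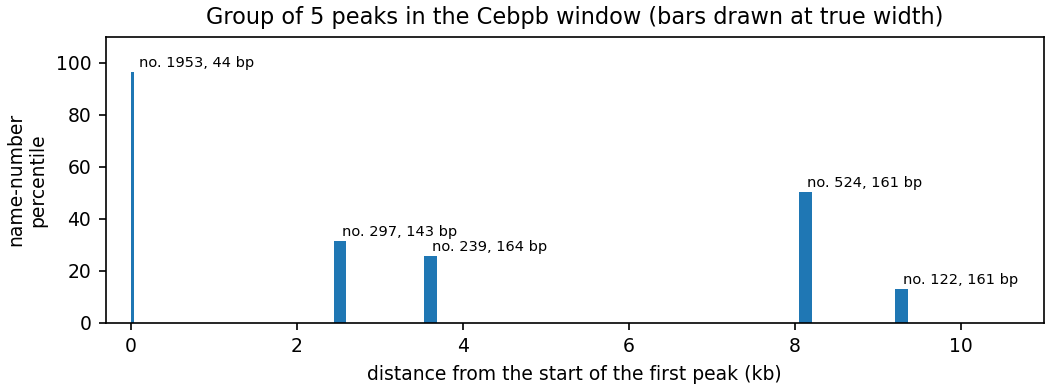
The 5 neighbouring peaks above Cebpb, drawn at true width against the distance from the start of the first (kb), with the name-number percentile on chromosome 2 as bar height and the name number and width written beside each bar. The first bar, 44 bp wide at percentile 96.5, stands apart from the other four, which are wider and lower.

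Beyond the group the Cebpb window held 5 more peaks. Number 257 (167692431-167692555) and number 204 (167713575-167713678) were 182 and 204 kb from the gene, at percentiles 27.5 and 21.9. After 122 kb without a peak came number 634 (167835568-167835693) and number 298 (167849751-167849842), 326 and 340 kb away. The last, number 792 (167898793-167898948), lay 389 kb away, just inside the window. The nearest peak outside it, number 110, lay 4.18 kb above the upper edge, followed by numbers 410 and 440 within 11.2 kb of that edge. Below the lower edge the nearest was number 5, the second lowest listed number of chromosome 2, 48.8 kb outside the window and 259 kb from Cebpb.

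Widths and name numbers at Cebpb were like those of its chromosome. The median width was 140 bp (range 44 to 165) against 143 bp on chromosome 2. The median percentile was 44.5, with 2 of 14 peaks in the lowest 25% of the chromosome's numbers and 3 in the highest 25%. Among the 68 windows of chromosome 2 with 5 or more peaks, 44.1% had a median as low or lower, and over all chromosomes 40.6% of 1049. The median gap between neighbours was 16.9 kb, against 54.5 kb on the chromosome.

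At Cebpa the 7 peaks formed 2 sets. The 4 near the gene were number 98 (35861879-35862043), number 142 (35877754-35877878), number 367, the nearest peak, and number 33 (35939659-35939770). They lay 38.0 and 22.2 kb below the gene position and 8.81 and 39.7 kb above it, and together spanned 77.9 kb. Their midpoints were 15.9, 31.0 and 30.9 kb apart, none close enough to join them into a group.

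The other set began 165 kb further up. It comprised number 200 (36104373-36104522), 204 kb from the gene, number 36 (36129916-36130064) at 230 kb and number 1193 (36133090-36133206) at 233 kb, together spanning 28.8 kb. The last 2 were 3.16 kb apart and were the only peaks of the window with a neighbour within 5 kb, 28.6% of its 7 peaks against 28.1% on chromosome 7. With 2 peaks below the gene position and 5 above it, in 300 kb of window on each side, the locus had more peaks on the higher side, as Cebpb did.

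**Figure D3:**
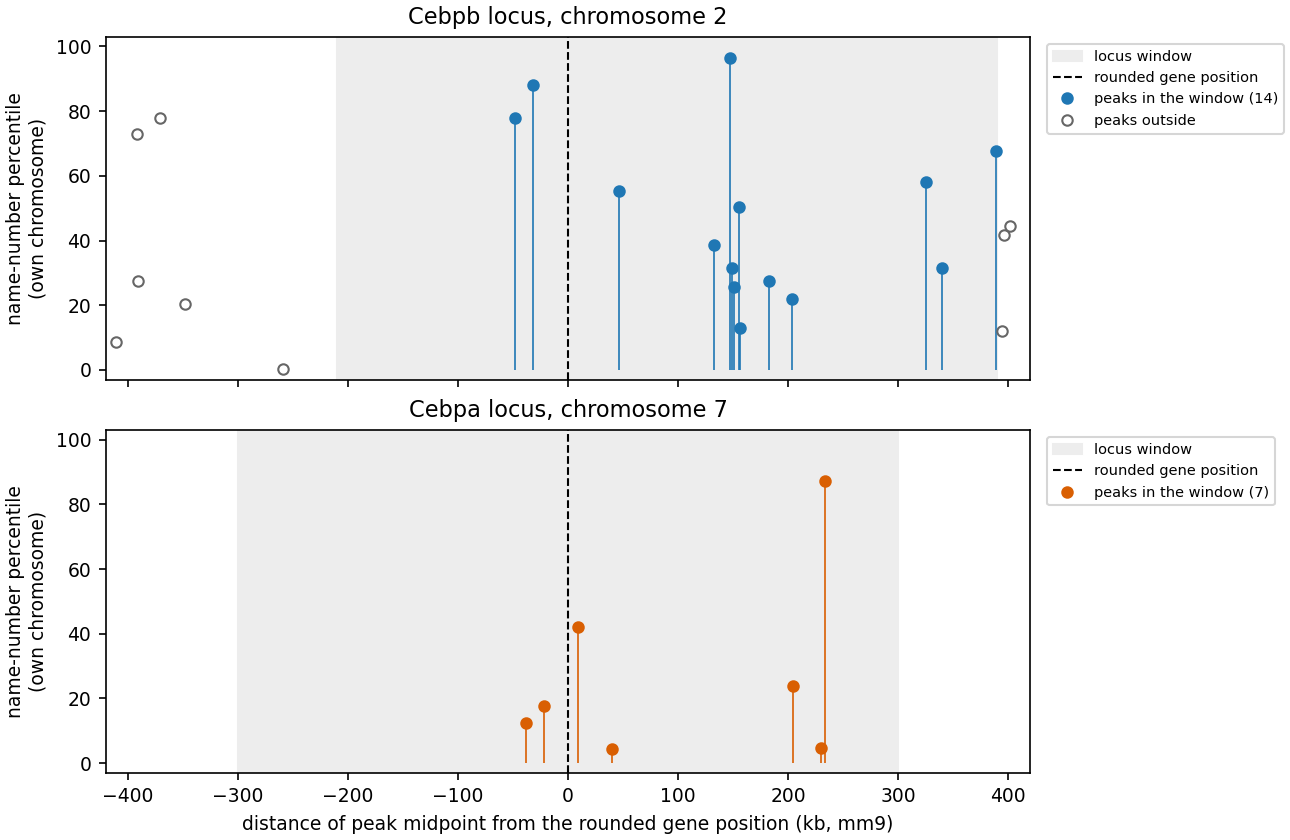
Position of each peak relative to the rounded gene position (kb, horizontal) and its name-number percentile on its own chromosome (vertical) at Cebpb (top, 14 peaks) and Cebpa (bottom, 7 peaks), with the locus window shaded and peaks outside it as open circles. Peaks at Cebpb reach percentiles from 13.1 to 96.5 and crowd about 150 kb above the gene, whereas 5 of 7 at Cebpa lie below percentile 25.

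Name numbers at Cebpa were low. The numbers 33 and 36 stood at percentiles 4.26 and 4.65 of chromosome 7, on which every number from 1 to 36 is listed. Numbers 98, 142 and 200 stood at 12.4, 17.7 and 23.9, so that 5 of 7 peaks fell in the lowest 25%. The exceptions were number 367, the peak nearest to the gene, at 42.2, and number 1193 at 87.2. The median percentile was 17.7, and 2.90% of the 69 windows of chromosome 7 with 5 or more peaks had one as low or lower, as did 2.76% of the 1049 windows of all chromosomes. This is a place in a ranking over windows, and with 1 list it could not be tested over samples.

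Peak widths at Cebpa ranged from 112 to 165 bp with a median of 149 bp, against 143 bp on chromosome 7. None was 83 bp or narrower, a width found in 10.6% of peaks of that chromosome and 9.11% of the list. Low numbers and large widths did not always go together peak by peak: number 33 had the narrowest peak of the window, 112 bp, and number 98 the widest. At Cebpb number 204 was 104 bp wide and number 373, at a higher percentile, was 165 bp wide. The highest number at Cebpb, 1953, was on its narrowest peak (44 bp), and the highest at Cebpa, 1193, on a peak of 117 bp.

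**Figure D4:**
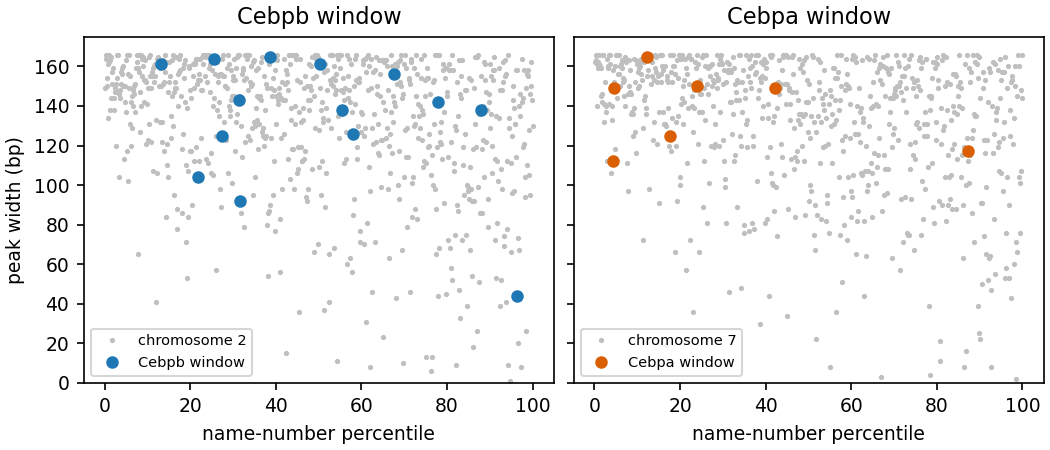
Peak width (bp) against name-number percentile for all listed peaks of chromosome 2 (left) and chromosome 7 (right) in grey, with the peaks of the Cebpb and Cebpa windows in colour. The Cebpa peaks cluster at the left with widths of 112 to 165 bp, and the Cebpb peaks spread from percentile 13.1 to 96.5, with 1 narrow peak at 44 bp.

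The loci also differed in their surroundings. The peaks at Cebpa were an island: the next listed peak below was 4.00 Mb from the first of them and the next above was 2.68 Mb from the last, so that the 271 kb from 35861879 to 36133206 held every listed peak between 31.9 and 38.8 Mb of chromosome 7. Of the 774 gaps between neighbouring peaks on that chromosome, 3 were longer than the gap below and 10 were longer than the gap above. Just outside lay numbers 414 (31863394-31863540) and 813 (38815781-38815939). Within 5 Mb of the gene there were 25 peaks, 7 of them in the window.

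Such islands were few in the list. With a gap of over 2.5 Mb on each side, a limit chosen after these gaps were seen, 10 sets of 5 or more peaks spanned at most 1 Mb. The Cebpa set was 1 of them, and its median percentile of 17.7 was the lowest of the 10, the other 9 running from 40.6 to 74.8. The share of the empty stretches to which reads can be mapped was not tested. Cebpb lay in no such island, with 69 peaks within 5 Mb, 14 of them in its window.

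**Figure D5:**
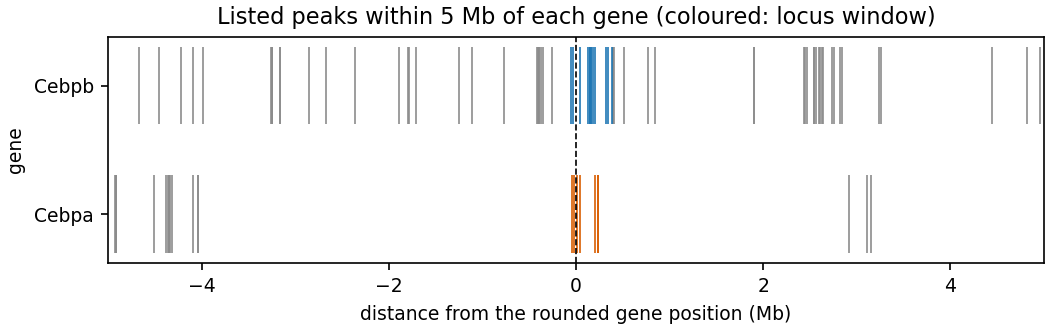
Each listed peak within 5 Mb of the rounded position of Cebpb (top, 69 peaks) and Cebpa (bottom, 25 peaks) as a vertical line at its distance from the gene (Mb), coloured inside the locus window and grey outside. The Cebpa peaks stand alone between empty stretches of 4.00 and 2.68 Mb. The Cebpb peaks are a dense part of a row of peaks on both sides. That row crowds again outside the window, between 2.44 and 2.84 Mb above the gene.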

How the data were processed

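Chromatin from Gata6-overexpressing keratinocytes was precipitated with 2 Gata6 antibodies, with Flag and input controls. The authors deposited 1 overlap list of 12137 peaks for the whole series. Per the submitters' processing notes the tools were BWA and HOMER and the build mm9. Which lists were overlapped, at what thresholds and with what use of the controls is not stated there. The deposited score (always 0) and strand (always plus) hold no information and were not used. The deposited start and end positions (bp) were read as mm9 and are given 1-based. Peaks were placed by midpoint. Density is the number of peaks over the window length for a window. For a chromosome it is the number over the distance between its outermost listed peaks. Windows of 600 kb were tiled without overlap between them. The counting steps were tested on simulated positions. The genes named were the members, the 3 nearest protein-coding genes on each side by order, and the C/EBP family. RefSeq promoters are of GRCm38.p6, and both members matched. No genome sequence of mm9 was used, so bases under the peaks are not shown. No test was run, since no values per library were at hand. The members and the measures were chosen with earlier results of these data known. Python 3.11.15, NumPy 2.4.6, pandas 2.3.3 and matplotlib 3.10.9 were used.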

Additional observations from a re-analysis of the deposited data

How the results depend on the processing

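Of 31 alternative values, 22 stayed within 1.5 times the value reported or were equal to it. The density of the Cebpb window over its chromosome was 5.09, but 3.27 within 100 kb and 3.05 within 1 Mb of the gene. It was 4.36 within 300 kb, a setting chosen after the data were seen. Half-widths of 50 and 200 kb, not among the 31 values, gave higher ratios of 6.54 and 5.45. For Cebpa the window ratio was 2.24, but 3.84 within 100 kb and 0.672 within 1 Mb, windows that take in less or more of the empty surroundings. When peaks had to lie within 1 kb to be joined, the largest group had 1 peak at both loci, since no gap is that short. The ratio of peaks per Mb above to below Cebpb was 3.23, but 2 with equal arms of 400 kb and 1.8 with arms of 1000 kb, also chosen after the data were seen. Equal arms of 300 kb, not among the 31 values, held 3 peaks below Cebpb and 9 above. The nearest peak to Cebpa was 8.81 kb away, but 1.19 kb with the gene position 10 kb higher. Peaks wider than 83 bp alone left every value computed from them within 1.5 times. No paired analysis was possible because the list holds no values per replicate, and no library could be left out. Library depth, which limits the sites that reach the list, is unknown.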

Other observations

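Among the listed numbers next to those of the members, 297 and 298 both lay in the Cebpb window, 191 kb apart with the higher number at the higher position. The listed partners of numbers 257 and 1028, which are 256 and 1027, lay 573 and 322 kb below them. On chromosome 2 the list holds 473 pairs of consecutive numbers. Their median distance was 4.20 Mb, 20.5% lay within 600 kb, and in 430 of them the higher number had the higher position. At Cebpa no pair of consecutive numbers lay inside the window. Of the 470 such pairs on chromosome 7, 23.6% lay within 600 kb, and their median distance was 4.11 Mb. Among the pairs that include a Cebpa peak, the closest was 367 and 368, 3103 kb apart.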
